A study of Mus musculus with 8 samples.

Results

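The 10 genes described here encode enzymes that handle thiol groups and peroxides in developing sperm: the glutathione peroxidase *Gpx4*, the testis thioredoxins *Txndc2* and *Txndc8*, the thioredoxin reductases *Txnrd1*, *Txnrd2* and *Txnrd3*, and the peroxiredoxins *Prdx1*, *Prdx2*, *Prdx5* and *Prdx6*. They were chosen by gene symbol and make up 10 of the 23343 genes, and 14 of the 26099 RefSeq rows, of the RNA-seq tables. In the H3K27ac ChIP-seq lists, 128 of 211311 peaks were assigned to 1 of these genes or lay within 2 kb of its start site. All samples came from testes of adult C57BL/6 mice. RNA-seq was performed on pachytene spermatocytes (PS), which are in meiotic prophase, and on round spermatids (RS), the haploid cells formed after meiosis, of mice that lack both *Rnf8*, a ubiquitin ligase, and *Scml2*, a Polycomb protein of the germline (*Rnf8;Scml2*-dKO). H3K27ac, a histone acetylation of active promoters and enhancers, was profiled in the same 2 cell types taken from wild-type mice. Each of these 4 groups had 2 biological replicates. No wild-type RNA and no dKO chromatin were analysed here, so no value below measures the effect of the mutations, and RNA and H3K27ac values set side by side come from different genotypes. Cells were separated by sedimentation through a BSA gradient, and the dKO cells were prepared on a small scale that, per the study's methods, allowed both cell types to be taken from the testes of 1 male. The labels do not say which PS and RS libraries came from the same male, so the replicate numbers were not used to pair them in the main tests.

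Thioredoxins reduce disulfides of other proteins with a pair of cysteines and are themselves reduced by the thioredoxin reductases with NADPH. Peroxiredoxins remove peroxides with a reactive cysteine and are recycled largely by thioredoxin, whereas GPX4 reduces lipid peroxides with a selenocysteine, usually at the expense of glutathione. In the male germline, GPX4 also has a structural role: it is oxidized and cross-linked in the sperm mitochondrial capsule, and a nuclear form made from an alternative first exon acts on protamine thiols as sperm chromatin condenses. TXNDC2 and TXNDC8 are thioredoxins largely restricted to spermatids, and TXNRD3 is a testis-rich reductase that carries a glutaredoxin domain.

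The codons that carry this chemistry are shown because they link the genes of the group. In the GRCm38.p6 RefSeq annotation, *Gpx4* and all 3 thioredoxin reductases are annotated with a selenocysteine read from a TGA codon, which otherwise ends translation; the codon is in capitals in the 30 bases or fewer of coding sequence below. In *Gpx4* it is codon 73 of the 197 codons of NM_008162 and codon 129 of the 253 of NM_001037741 (coding exon 3 of both transcripts, chr10:80054722-80054751, plus strand). In the reductases it lies in the last coding exon, with 1 codon between it and the stop: codon 498 of 499 in *Txnrd1* NM_015762 (chr10:82896022-82896045, plus strand), 526 of 527 in *Txnrd2* NM_013711 (chr16:18477757-18477780, plus strand) and 614 of 615 in *Txnrd3* NM_153162 (chr6:89674774-89674797, plus strand).
Gpx4: aacgtggcctcgcaaTGAggcaaaactgac
Txnrd1: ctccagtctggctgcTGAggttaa
Txnrd2: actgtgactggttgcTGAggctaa
Txnrd3: actcagaaaggctgcTGAggctag
*Txndc2* (codon 477 of 550 of NM_001146002, coding exon 3, chr17:65637732-65637761, minus strand) and *Txndc8* (codon 32 of 127 of NM_026132, coding exon 2, chr4:58007090-58007119, minus strand) each hold the pair of cysteine codons of a thioredoxin site, in capitals, spaced by a glycine and a proline codon.
Txndc2: gccgcttggTGTggccccTGCagaatgatg
Txndc8: gcaaagtggTGTggccccTGCaaaacaatt

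The promoters of the 3 members with the largest changes in H3K27ac are shown next, as the 250 bases before the RefSeq start (GRCm38.p6): *Txndc2* (chr17:65642205-65642454, minus strand), *Txndc8* (chr4:58009127-58009376, minus strand) and *Prdx2* (chr8:84969372-84969621, plus strand). Capitals mark matches on either strand to 4 motifs chosen after the sequences had been seen: TGACNTCA, a cAMP response element with 1 free letter; the TATA box TATAAA; the CCAAT box; and the core of the antioxidant response element, TGACNNNGC. These were found in 7.49%, 12.4%, 33.8% and 10.2%, respectively, of the 250-base windows before 32851 RefSeq starts.
Txndc2: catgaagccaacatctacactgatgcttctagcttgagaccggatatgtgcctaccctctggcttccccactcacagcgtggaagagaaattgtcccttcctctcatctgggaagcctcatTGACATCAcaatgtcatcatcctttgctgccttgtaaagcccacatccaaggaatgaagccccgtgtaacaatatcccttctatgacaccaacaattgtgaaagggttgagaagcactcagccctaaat
Txndc8: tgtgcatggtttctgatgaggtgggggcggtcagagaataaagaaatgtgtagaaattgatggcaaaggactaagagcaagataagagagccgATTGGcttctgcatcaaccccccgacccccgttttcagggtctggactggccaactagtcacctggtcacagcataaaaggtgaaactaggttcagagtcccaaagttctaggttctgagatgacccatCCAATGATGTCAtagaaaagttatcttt
Prdx2: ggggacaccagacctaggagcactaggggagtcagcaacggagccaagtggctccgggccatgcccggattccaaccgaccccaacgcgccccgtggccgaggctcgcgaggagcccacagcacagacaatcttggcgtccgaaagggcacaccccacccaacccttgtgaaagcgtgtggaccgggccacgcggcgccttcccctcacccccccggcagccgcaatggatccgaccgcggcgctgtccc
*Txndc2* held the cAMP response element 129 bases before its start. *Txndc8* held it, on the opposite strand, 24 bases before its start, where it overlaps a CCAAT box, with another CCAAT box 157 bases before the start. *Prdx2* held none of the 4 motifs. The *Txndc2* and *Txndc8* windows had 3 and 4 CG dinucleotides and the *Prdx2* window had 23, beside a median of 6 over all windows. A match describes the letters of the window and was not tested for binding.

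The RNA-seq libraries held 9655405 to 12289694 reads on genes, of which 0.147 to 0.241% fell on the 10 members. The H3K27ac lists give no read totals, and held 41095 to 74919 peaks per sample, the most in RS replicate 1. *Rnf8* had 93 and 110 reads in PS and 61 and 50 in RS, and *Scml2* had 40 and 92 in PS and 44 and 98 in RS. Without wild-type RNA these counts do not test the labels. The summed RPKM (reads per kilobase of transcript, scaled to library size) of 10 round spermatid markers was 565 and 916 in PS and 13254 and 14075 in RS. That of 10 spermatocyte markers was 978 and 925 in PS and 395 and 463 in RS. Both sums went in the direction of the labels. Of the 10 spermatid markers, 9 were called higher in RS and 0 lower. Of the 10 spermatocyte markers, 7 were called lower and 0 higher. Among these, *Piwil1* went from 286 and 326 RPKM to 9.91 and 17.6. *Ccna1* had 76.7 and 108 RPKM in PS and 120 and 113 in RS. Markers of other cell types were present: all 6 Leydig cell markers were lower in RS, with a sum of 729 and 547 RPKM in PS and 68.3 and 42.6 in RS, most of it *Insl3* (593, 450, 60.0 and 35.8). All 5 macrophage and leukocyte markers were higher in RS (sum 1.79 and 2.41 in PS, 14.3 and 13.4 in RS). The sums of 8 Sertoli, 4 peritubular and 6 spermatogonial markers lay between 18.9 and 63.1, 4.84 and 5.13, and 22.3 and 40.9 RPKM. Of those tested, 2 of 6 Sertoli, 1 of 4 peritubular and 3 of 6 spermatogonial markers were called higher in RS and 0 lower. Most of the Sertoli sum was *Clu* (57.9 and 27.04 in PS, 28.1 and 14.5 in RS). The part of these cells in the results below was not tested. In all, 4 of the 6 red blood cell markers found in the files (*Hba-a1*, *Hba-a2*, *Hbb-b1* and *Hbb-bs*) were at 0 reads in all 4 libraries. The authors kept unique alignments only, so reads that match several genes equally were not counted. These 0 values therefore cannot tell whether red blood cells were present. *Alas2* had 2 and 0 reads in PS and 9 and 1 in RS. *Slc4a1* had 0 and 2 reads in PS and 8 and 5 in RS. In bulk samples, fewer cells of a type and less RNA per cell cannot be told apart.

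From PS to RS, RNA of the spermatid thioredoxins *Txndc2* and *Txndc8* rose 13.2-fold and 8.75-fold, and *Gpx4* rose 1.54-fold, with its nuclear transcript called and the other one not. RNA of *Txnrd1*, *Prdx2* and *Prdx5* fell, by a factor of 1.86 to 1.95. *Txnrd2*, *Txnrd3*, *Prdx1* and *Prdx6* did not pass the test. The test was edgeR's quasi-likelihood test over the 14647 genes with at least 10 reads in at least 2 samples, and a gene was called at a Benjamini-Hochberg adjusted p under 0.05 and a change over 1.5-fold. All 10 members were tested; 3 were called higher and 3 lower in RS. Of all genes tested, 58.0% were called, 30.4% higher and 27.6% lower, so that the members' share in each direction was near the background. In what follows, levels are in RPKM, per length, and differences are the fitted log2 of RS over PS with its standard error (SE). With 2 samples a group, an exact permutation test of a single value cannot go below p = 0.333, so the calls rest on the fit across all genes.

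**Figure D1:**
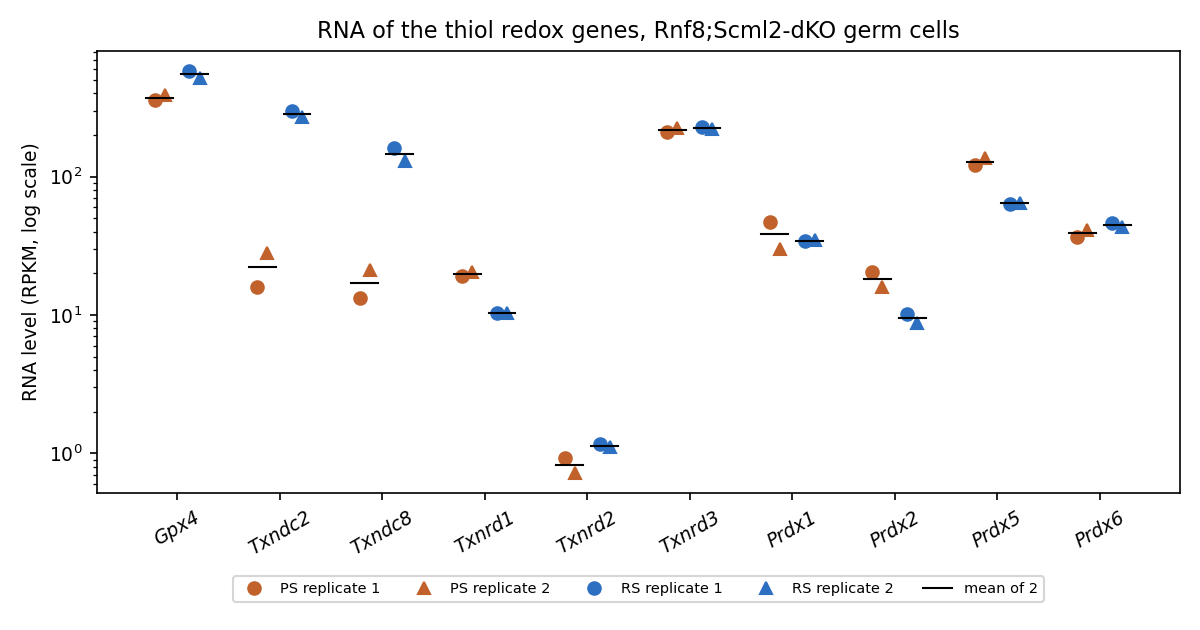
RNA level of the 10 genes in each *Rnf8;Scml2*-dKO library (RPKM, log axis); circles and triangles are replicates 1 and 2, orange PS, blue RS, and black lines the mean of 2. *Txndc2* and *Txndc8* rose from 13.2 to 28.2 RPKM in PS to 130 to 298 in RS, *Txnrd1*, *Prdx2* and *Prdx5* were lower in both RS libraries, and *Txnrd2* lay near 1 RPKM throughout.

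*Gpx4* was the most abundant member in both stages, at 356 and 392 RPKM in PS and 583 and 517 in RS, and both RS libraries lay above both PS libraries. The rise was 0.62 ± 0.13 (log2, SE, n = 2 per stage; edgeR adjusted p = 0.0030), or 1.54-fold, just over the threshold. The direction held in all alternatives tried and the adjusted p stayed at or below 0.0254, but the fold fell under 1.5 in 5 of 12, among them without PS replicate 1 (log2 0.52) and without RS replicate 1 (0.52).

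The deposited tables list *Gpx4* as 2 rows with different first exons. NM_008162, from which the cytosolic and mitochondrial forms are made (chr10:80053510-80056439, plus strand), had 345 and 347 RPKM in PS and 340 and 375 in RS. These ranges overlapped, and the difference was 0.09 ± 0.10 (log2, SE; edgeR on rows, adjusted p = 0.47). NM_001037741, which encodes the nuclear form (chr10:80054037-80056439, plus strand), had 10.7 and 44.6 RPKM in PS and 243 and 142 in RS, with no overlap between stages. Its rise was 2.84 ± 0.70 (log2, SE; adjusted p = 0.021). The share of *Gpx4* RPKM on this row was 3.01 and 11.4% in PS and 41.7 and 27.5% in RS.

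The 2 transcripts share all exons but the first, and the authors divided the shared reads between rows by an expectation-maximization step, so the split is an estimate. The nuclear row held 121 and 493 reads in PS and 3379 and 1664 in RS, so the replicates of each stage lay far apart. The rise was 2.13 without PS replicate 1 and 4.28 without PS replicate 2, and without RS replicate 1 it was 2.39 and no longer called (adjusted p = 0.057). Of the 15626 rows tested, 51.8% were called, 27.1% higher and 24.7% lower in RS. Of the 14 member rows, 11 had enough reads to be tested, and 3 were called higher and 3 lower. The remaining 3 were the second *Txndc2* row (NM_153519), at 0 reads in every library, and 2 *Txnrd1* rows with at most 27 reads in a library.

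**Figure D2:**
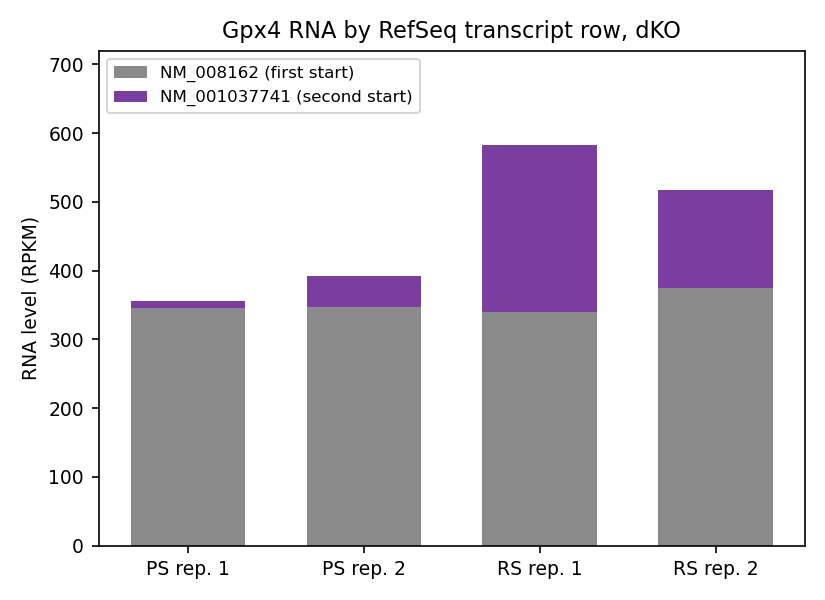
RNA level of *Gpx4* in each dKO library (RPKM), stacked by RefSeq row: grey, NM_008162; purple, NM_001037741, which starts downstream. The grey part stays between 340 and 375 RPKM, and the purple part goes from 10.7 and 44.6 in PS to 243 and 142 in RS.

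*Txndc2*, which encodes a thioredoxin of the sperm tail (NM_001146002, chr17:65637505-65642204, minus strand), had 16.0 and 28.2 RPKM in PS and 298 and 271 in RS. It rose by 3.73 ± 0.26 (log2, SE, n = 2 per stage; adjusted p = 7.91e-06), or 13.2-fold, and went from sixth of the 10 members in PS to second in RS. *Txndc8*, a thioredoxin found at the Golgi and acrosome of spermatids (NM_026132, chr4:57984029-58009124, minus strand), had 13.2 and 20.98 RPKM in PS and 161 and 130 in RS. Its rise was 3.13 ± 0.24 (log2, SE; adjusted p = 1.30e-05), or 8.75-fold. For both genes the stages were far apart. Both were higher in PS replicate 2 than in PS replicate 1, and so was the sum of the round spermatid markers (916 against 565 RPKM); the part of spermatids in the PS values was not tested. Their rises were 3.35 and 2.81 (log2) without PS replicate 1, and 4.26 and 3.57 without PS replicate 2.

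The 3 thioredoxin reductases differed more in level than in change. *Txnrd3* (chr6:89643988-89675529, plus strand) had 209 and 227 RPKM in PS and 228 and 223 in RS, with overlapping stages and a difference of 0.09 ± 0.12 (log2, SE; adjusted p = 0.53). It made up 91.2 and 91.5% of the summed RPKM of the 3 reductases in PS and 95.2 and 95.1% in RS. *Txnrd1*, the cytosolic reductase, had 19.2 and 20.3 RPKM in PS and 10.4 and 10.3 in RS, with no overlap, and fell by 0.90 on the log2 scale (SE 0.14; adjusted p = 0.00070). Nearly all its reads, 95.9 to 100%, were on the row of NM_001042513 and NM_015762 (chr10:82859206-82897724, plus strand). *Txnrd2*, the mitochondrial reductase (chr16:18426417-18479073, plus strand), had only 20 and 15 reads in PS and 31 and 24 in RS, that is 0.92, 0.72, 1.16 and 1.1 RPKM. Its difference of 0.49 ± 0.37 (log2, SE; adjusted p = 0.26) was not resolved at this depth.

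Of the peroxiredoxins, *Prdx5* and *Prdx2* fell and the other two did not pass the test. *Prdx5*, a peroxiredoxin of mitochondria, peroxisomes and cytosol (chr19:6906819-6909645, minus strand), had 121 and 137 RPKM in PS and 63.7 and 64.8 in RS. It fell by 0.96 on the log2 scale (SE 0.14; adjusted p = 0.00049), or 1.95-fold, but remained the most abundant of the 4, at 41.3 and 42.7% of their summed RPKM in RS, from 53.7 and 61.1% in PS. *Prdx2*, a cytosolic peroxiredoxin (chr8:84969648-84974313, plus strand), had 20.4 and 16.1 RPKM in PS and 10.2 and 8.74 in RS, and fell by 0.89 on the log2 scale (SE 0.21; adjusted p = 0.0058). Neither gene overlapped between stages.

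*Prdx1*, the other typical cytosolic peroxiredoxin (chr4:116685599-116700000, plus strand), had 46.7 and 29.8 RPKM in PS and 34.1 and 34.9 in RS, so that RS lay within the range of PS. The fitted difference was -0.10 ± 0.20 (log2, SE; adjusted p = 0.66); it was 0.22 without PS replicate 1 and -0.33 without PS replicate 2, with adjusted p of 0.27 and 0.091. *Prdx6*, which has a single catalytic cysteine and a phospholipase activity (chr1:161240112-161251166, minus strand), had 36.8 and 41.3 RPKM in PS and 46.2 and 43.5 in RS. The stages did not overlap, but the difference of 0.24 ± 0.14 (log2, SE; adjusted p = 0.15) did not pass the test. Its retrocopy *Prdx6b* had 98.9 and 106 RPKM in PS and 112 and 101 in RS. Reads that match both genes equally were not kept by the authors, who used unique alignments, so the levels of this pair are uncertain.

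*Txnrd1*, *Prdx2*, *Prdx5* and the Leydig markers were all lower in RS, and *Prdx1*, *Prdx2* and the Leydig markers were all higher in PS replicate 1 than in PS replicate 2. *Txnrd1* and *Prdx5* were instead lower in PS replicate 1. Without PS replicate 1, the log2 differences of *Txnrd1*, *Prdx2* and *Prdx5* were -0.96, -0.74 and -1.08. PS replicate 2 also held more Leydig marker RNA than RS (547 RPKM beside 68.3 and 42.6). Leaving out PS replicate 1 therefore does not remove it. The part of Leydig cell RNA in these values was not tested.

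Ordered by mean RPKM, PS ran *Gpx4*, *Txnrd3*, *Prdx5*, *Prdx6*, *Prdx1*, *Txndc2*, *Txnrd1*, *Prdx2*, *Txndc8* and *Txnrd2*. The replicates of *Prdx6* and *Prdx1* overlapped, and so did each pair of neighbours from *Txndc2* to *Txndc8*. In RS the order was *Gpx4*, *Txndc2*, *Txnrd3*, *Txndc8*, *Prdx5*, *Prdx6*, *Prdx1*, *Txnrd1*, *Prdx2* and *Txnrd2*, and no neighbours overlapped. The 4 peroxiredoxins together went from 224 and 224 RPKM in PS to 154 and 152 in RS, the reductases from 229 and 248 to 239 and 234, and *Txndc2* with *Txndc8* from 29.2 and 49.1 to 459 and 401.

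H3K27ac was compared at the strongest peak within 2 kb of a start site, as log2(1 + fold enrichment). Fold enrichment is the fragment pileup at the summit over 1 background constant per sample, with 1 added to both. All 10 members had such a peak in all 4 wild-type samples, as did 48.8% of the 23343 genes. The fold enrichment of promoters was generally lower in RS: without scaling, the median difference over all genes tested was -0.39 (log2). The main fit therefore set each sample to the same median, and changes are relative to it. On that scale, limma called *Txndc2* and *Txndc8* higher in RS and *Prdx2*, *Prdx6*, *Txnrd3* and *Prdx5* lower. Of the 11394 genes tested, 44.1% were called at an adjusted p under 0.05, 23.1% higher and 21.0% lower. Without centring, 42.3% were called, 8.28% higher and 34.0% lower, and the members called were the same 2 higher and the same 4 lower, joined by *Prdx1* (adjusted p = 0.027).

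**Figure D3:**
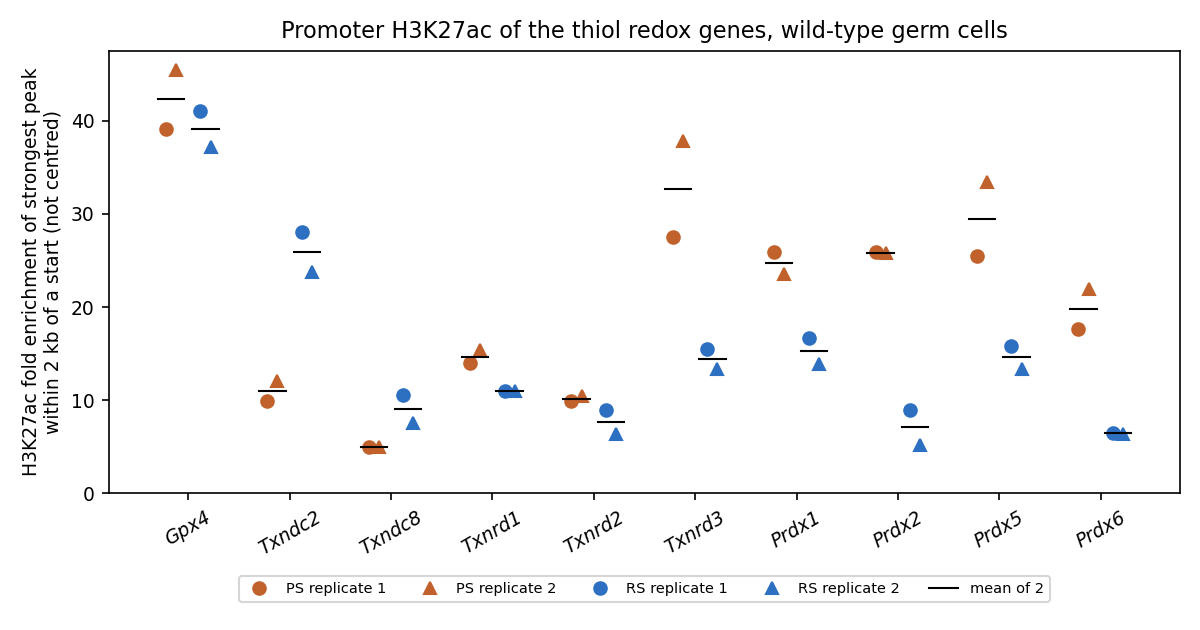
Fold enrichment of the strongest H3K27ac peak within 2 kb of a start of each gene in wild-type PS (orange) and RS (blue), before centring; circles and triangles are replicates 1 and 2, and black lines the mean of 2. *Txndc2* and *Txndc8* are higher in both RS samples, *Gpx4* overlaps between stages, and the other 7 genes are lower in both RS samples on this uncentred scale.

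At *Txndc2* the fold enrichment was 9.88 and 12.1 in PS and 28.1 and 23.8 in RS, a rise of 1.57 ± 0.15 (centred log2, SE, n = 2 per stage; limma adjusted p = 4.78e-11). The strongest peak was 1506 and 2385 bp wide in PS and 8488 and 6191 bp in RS. In PS the same stretch was divided among 4 and 5 peaks, and the summed width of all peaks within 2 kb was 4702 and 4398 bp in PS and 8488 and 7083 bp in RS. The summit of the strongest peak lay between -533 and -456 bases from the start in all samples, upstream of the promoter sequence printed above. At *Txndc8* the fold enrichment was 4.94 and 4.93 in PS and 10.6 and 7.55 in RS, a rise of 1.14 ± 0.22 (adjusted p = 4.11e-05). These were the weakest PS promoter peaks of the 10 genes. The summit of the strongest peak lay 531 bases inside the gene in PS replicate 1, and 482 and 356 in RS. In PS replicate 2, 2 peaks of the same strength had summits 148 and 1220 bases inside the gene. The first of these, like the strongest peak of RS replicate 1, reached into the printed window. Both genes kept their direction and call without centring, at 1.17 and 0.74.

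*Gpx4* had the highest fold enrichment of the members in every sample, at 39.1 and 45.5 in PS and 41.1 and 37.2 in RS. The stages overlapped before centring, the centred difference was 0.29 ± 0.13 (limma adjusted p = 0.072), and the uncentred one was -0.11. A single broad peak of 3596 to 6603 bp covered both *Gpx4* starts in each sample, so the peak lists do not separate the promoter of the nuclear form from that of the other transcript. The centred value passed the threshold under some alternatives, among them without RS replicate 1 (0.41, adjusted p = 0.0054).

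*Prdx2* had the largest fall in H3K27ac, from 25.9 and 25.8 in PS to 8.95 and 5.22 in RS, or by 1.37 on the centred log2 scale (SE 0.17; limma adjusted p = 6.68e-09). *Prdx6* followed, with 17.7 and 21.9 in PS and 6.51 and 6.39 in RS, and fell by 1.08 (SE 0.18; adjusted p = 4.40e-06). *Txnrd3* had 27.6 and 37.8 in PS and 15.5 and 13.4 in RS and fell by 0.72 (SE 0.14; adjusted p = 6.13e-05). None of the 3 overlapped between stages.

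At *Prdx5* the values were 25.5 and 33.4 in PS and 15.9 and 13.4 in RS, and they fell by 0.56 on the centred scale (SE 0.14; adjusted p = 0.0012), which was -0.43 without PS replicate 2 (adjusted p = 0.053). The start of *Trmt112* lies 53 bases away on the opposite strand, so the peak cannot be assigned to either gene alone; *Trmt112* RNA was 36.0 and 39.5 RPKM in PS and 17.8 and 18.0 in RS. *Prdx1* had 25.9 and 23.6 in PS and 16.7 and 13.9 in RS, a centred difference of -0.27 ± 0.14 (adjusted p = 0.13), and the start of *AV051173* lies 423 bases from its own. *Txnrd1*, with 14.0 and 15.3 in PS and 10.99 and 11.03 in RS, and *Txnrd2*, with 9.88 and 10.4 in PS and 8.95 and 6.39 in RS, had centred differences of 0.01 ± 0.17 and 0.02 ± 0.20. Neither was called, and each difference from the median promoter was smaller than its SE. A small change in either direction was not resolved.

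**Figure D4:**
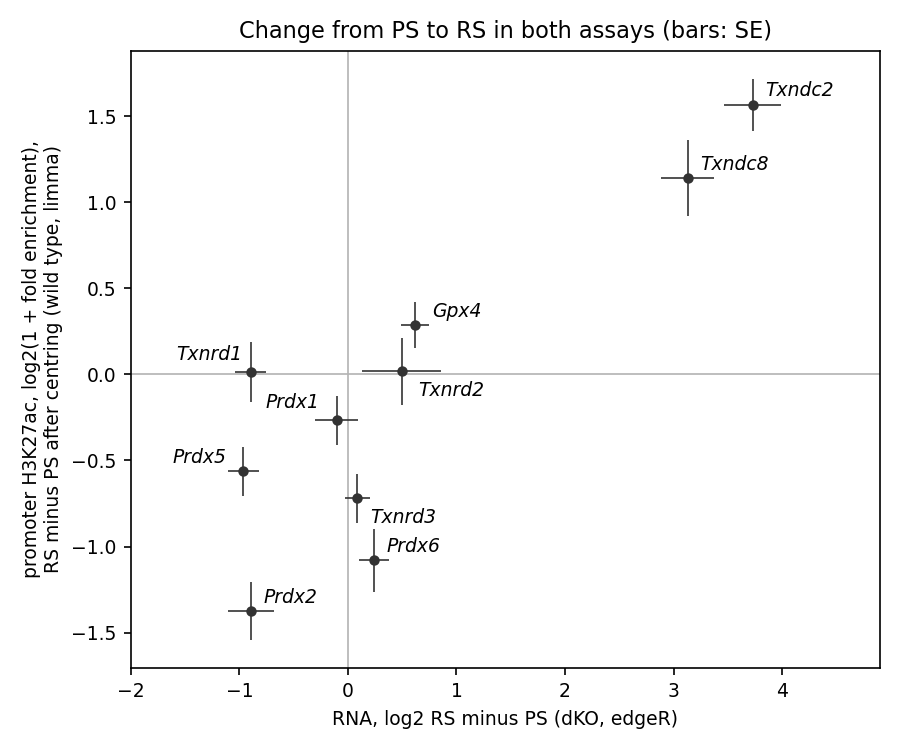
Change from PS to RS of the 10 genes: RNA of dKO cells on the x axis (log2, edgeR) and promoter H3K27ac of wild-type cells on the y axis (centred log2(1 + fold enrichment), limma); bars are the SE of each fit. *Txndc2* and *Txndc8* lie at the upper right, *Prdx2* and *Prdx5* at the lower left, and *Txnrd3* and *Prdx6* fell in H3K27ac with RNA differences of 0.09 and 0.24.

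Side by side, *Txndc2* and *Txndc8* were called higher in both assays and *Prdx2* and *Prdx5* lower in both. *Txnrd1* was called in RNA alone, at -0.90 beside 0.01 in H3K27ac. *Txnrd3* and *Prdx6* were called in H3K27ac alone, at -0.72 and -1.08 beside 0.09 and 0.24 in RNA. *Prdx1* and *Txnrd2* were called in neither. *Gpx4* was called in RNA, at 0.62, and missed the threshold in H3K27ac. Of all genes tested, 58.0% were called in RNA and 44.1% in H3K27ac. The share of all genes called in both was not counted, so these joint calls have no background beside them. The difference between assays was not tested, since genotype and assay cannot be told apart here.

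A list of 83 other genes of the thioredoxin, peroxiredoxin, glutathione and selenoprotein systems sets these values in context. It was drawn up with earlier results of these data known. The files held 82 of them and 74 were tested: 13 were called higher, 22 lower and 39 were not called. That is 17.6% higher and 29.7% lower, beside 30.4% and 27.6% of all genes, and the median log2 difference was -0.34, beside 0.01 over all genes tested.

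The largest rise on the list was that of *Smcp*, the cysteine-rich protein of the sperm mitochondrial capsule, with 70.4 and 121 RPKM in PS and 1238 and 1334 in RS (3.78 ± 0.25; edgeR adjusted p = 6.73e-06). *Srxn1*, sulfiredoxin, which repairs overoxidized peroxiredoxins, went from 1.93 and 2.79 to 19.2 and 20.4 RPKM (3.11 ± 0.22). *Prdx4*, the X-linked peroxiredoxin of the secretory pathway, went from 23.2 and 14.2 to 62.1 and 57.1 RPKM (1.72 ± 0.22). The paper places *Prdx4* in a class of X-linked escape genes that depend on RNF8, which these cells lack. Without wild-type RNA, the effect of that loss on the size of its rise was not tested. *Prdx3*, the peroxiredoxin of mitochondria, had 3.95 and 2.06 RPKM in PS and 1.98 and 2.29 in RS and was not called, so that *Prdx4* was the only 1 of these 6 peroxiredoxins called higher.

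Other large rises were those of *Glrx2*, a glutaredoxin (2.43 and 2.31 to 19.4 and 16.8 RPKM), *Pdilt*, a testis protein disulfide isomerase (9.23 and 16.8 to 94.1 and 100.1 RPKM), and *Gpx6*, a glutathione peroxidase (1.88 and 2.64 to 15.4 and 15.8 RPKM). Their log2 rises were 3.0, 2.94 and 2.82. *Gsr*, glutathione reductase, was also called higher (1.16 ± 0.38; adjusted p = 0.026), although its PS values of 4.43 and 1.55 RPKM lay far apart. At the promoters of *Smcp*, *Pdilt*, *Glrx2*, *Prdx4* and *Srxn1* H3K27ac was called higher too, by 1.44, 1.31, 0.78, 0.49 and 0.43 (centred log2). Before centring, the stages overlapped at *Prdx4* (19.2 to 20.2 in PS, 18.6 and 24.0 in RS) and *Srxn1* (19.3 and 19.7 in PS, 17.4 and 23.2 in RS). *Gpx6* had a promoter peak in RS replicate 1 alone and was not tested. Among the other genes called higher in RNA, H3K27ac was called higher at *Selk* (0.86) and *Sod1* (0.80) and lower at *Nme8* (-0.74). At *Gsr*, *Gfer*, *Nfe2l2* and *Hmox1* it was not called. Of the 65 promoters of the list that were tested, 11 were called higher and 16 lower, beside 23.1% and 21.0% of all genes.

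Among the genes called lower, *Qsox2*, a sulfhydryl oxidase, went from 27.8 and 20.3 RPKM to 5.25 and 5.27 (log2 difference -2.15), and *Sesn3*, a sestrin, from 38.3 and 36.1 to 8.11 and 9.28 (-2.06). *Gclc*, the catalytic subunit of the enzyme that limits glutathione synthesis, went from 14.8 and 15.7 to 4.11 and 4.38 RPKM (-1.80). All 3 glutathione synthesis genes, *Gclc*, *Gclm* and *Gss*, were called lower, beside 27.6% of all genes tested. *Txndc12*, a thioredoxin-like protein of the endoplasmic reticulum, went from 72.7 and 68.4 to 22.7 and 25.0 RPKM (-1.52). H3K27ac was called lower at *Txndc12* (-0.52) and *Sesn3* (-0.47), and not called at *Gclc* (0.02), *Gclm* (-0.12) and *Qsox2* (-0.15). Among the other genes called lower in RNA, H3K27ac was called lower at *Nxn*, *Sepw1*, *Txnip*, *Msrb3*, *Eefsec* and *Sephs2* (-0.996 to -0.357). Apart from *Gss*, it was not called at the rest, and *Mgst1* was not tested. At *Gss* it was called higher (0.45; limma adjusted p = 0.048), although the stages overlapped before centring (9.05 and 10.4 in PS, 12.6 and 8.13 in RS).

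*Gstm1* (133 and 69.8 to 30.5 and 20.4 RPKM, log2 difference -1.94) and *Mgst1* (14.0 and 6.68 to 4.02 and 2.52, -1.60), which conjugate glutathione, were also called lower. Both were higher in PS replicate 1 than in PS replicate 2, as were the Leydig markers, whose part here was not tested. Of the general thioredoxins, mitochondrial *Txn2* fell from 67.6 and 67.5 to 43.6 and 42.3 RPKM (-0.61 ± 0.13; adjusted p = 0.0034), while *Txn1* was low throughout, at 2.50 to 5.26 RPKM, and was not called (adjusted p = 0.76).

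The group listed for making selenocysteine and inserting it at the TGA codons shown above held 8 tested genes. It included *Sephs1* and *Secisbp2l*, whose symbols resemble those of *Sephs2* and *Secisbp2* and whose own part in these steps was not examined. Of the 8, 4 were called lower, 4 were not called and 0 were called higher. The 4 were *Sephs2*, *Secisbp2l*, *Eefsec* and *Trnau1ap*. *Sephs2*, which makes the selenium donor, was the most abundant, at 184 and 171 RPKM in PS and 88.1 and 93.0 in RS (-0.93 ± 0.11; adjusted p = 0.00016). Of 15 genes tested in the group of thioredoxins and thioredoxin-like proteins, 1 was called higher and 6 lower. *Txnip*, which is not itself a thioredoxin, was counted in this group and among the 6. Of 10 disulfide oxidases and isomerases, 2 were called higher and 2 lower. Beside these counts, 30.4% of all genes tested were called higher and 27.6% lower. The groups are small and were not tested as sets. *Nfe2l2*, which encodes the oxidative stress factor NRF2, was called higher. Of the 2 targets grouped with it, *Hmox1* was called higher and *Nqo1* was not called. *Keap1* was not called either. Other targets of NRF2 were not gathered into this group, so a rise of its targets as a set was not tested. *Nfe2l2* and *Hmox1* were low, at 2.49 and 1.82 RPKM in PS and 6.86 and 6.40 in RS for *Nfe2l2*, and 2.56, 1.77, 5.12 and 5.06 for *Hmox1*. The macrophage and leukocyte markers were also higher in RS, and the part of those cells here was not tested.

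**Figure D5:**
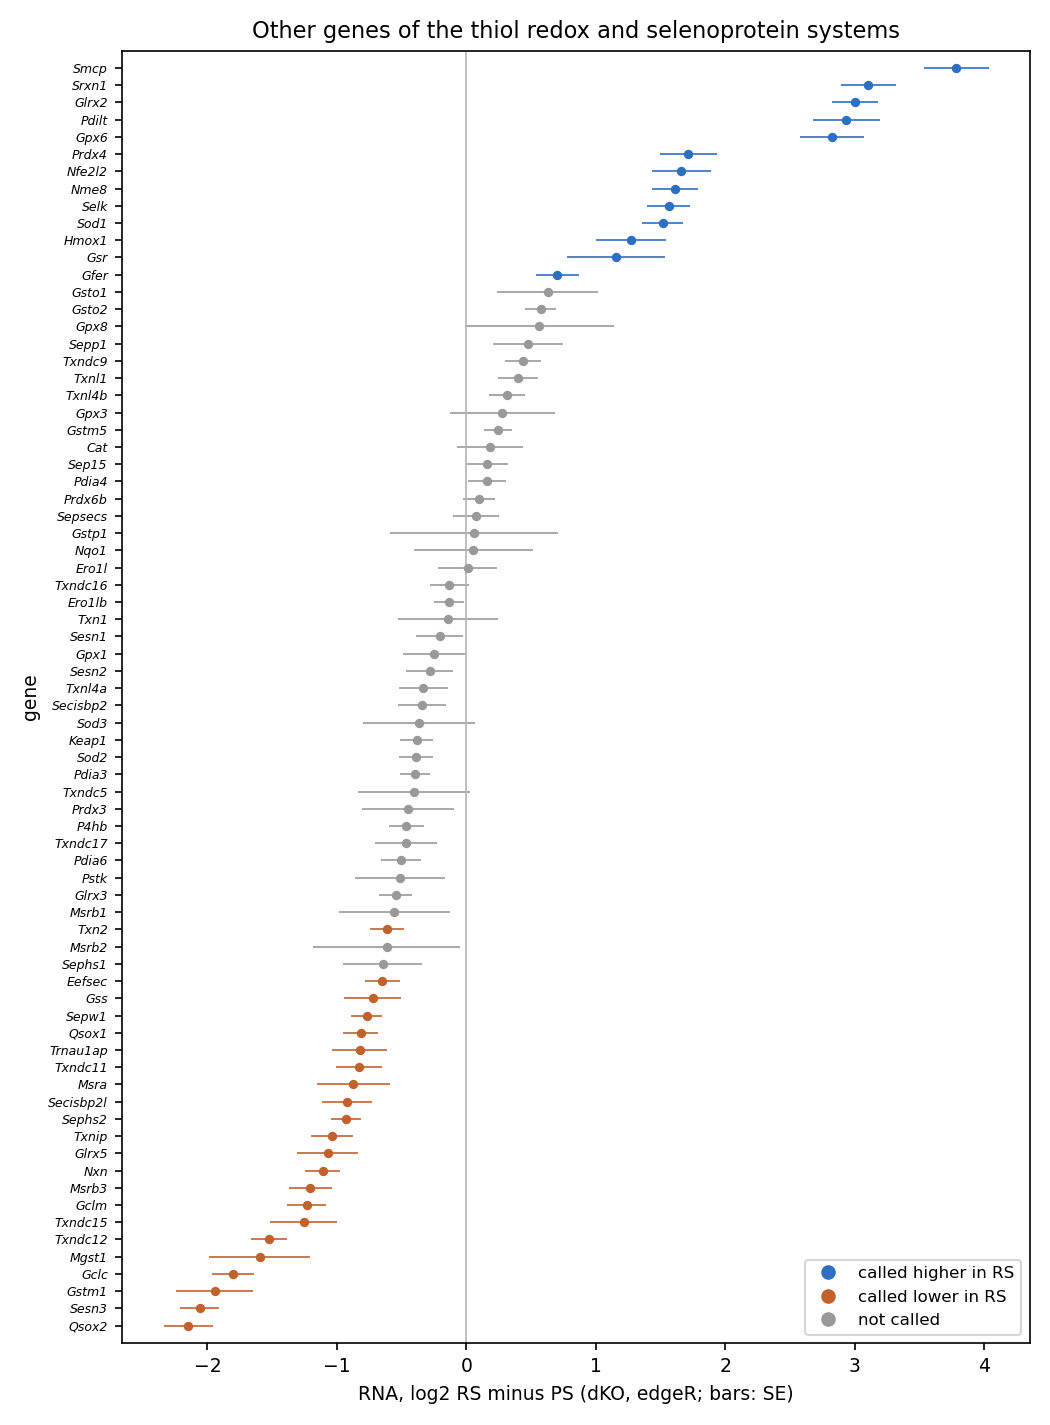
Log2 difference of RNA between RS and PS of dKO cells for the 74 tested genes of the wider list (edgeR; bars, SE), ordered by size; blue, called higher in RS; orange, called lower; grey, not called. *Smcp* (3.78) is at the top and *Qsox2* (-2.15) at the bottom, and 22 genes are orange beside 13 blue.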

How the data were processed

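Data from 8 samples were analysed, 2 per group: RNA-seq for the *Rnf8;Scml2*-dKO and H3K27ac ChIP-seq for the wild type, each in PS and RS. The authors aligned RNA-seq reads to mm10 with STAR 2.4.2a, keeping unique alignments, and divided reads between RefSeq transcripts by expectation-maximization. They deposited the resulting estimated counts, without normalization, and RPKM. Bulk RNA was amplified with a kit not stated to keep strand, so overlapping genes cannot be separated. ChIP-seq reads were aligned with Bowtie 1.1.1 and peaks called per sample with MACS2 2.1.0.20140616 (versions from the submitters' processing notes; the methods name others for these 2). The peak lists as deposited hold the pileup signal, the fold enrichment (a ratio to 1 background constant per sample) and, per summit, -log10 of p and of q.

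Estimated counts, all whole numbers, were summed per gene and tested with edgeR 4.0.16 (quasi-likelihood, TMM; at least 10 counts in at least 2 samples; adjusted p under 0.05 and over 1.5-fold), also per row. The SE is the size of the log2 difference divided by the square root of F. Summits of a peak were joined, and promoter peaks were tested with limma 3.58.1 (trend) on log2(1 + fold enrichment), centred to a common median, for genes with a peak in all 4 samples. Promoters and coding sequence are from RefSeq, GRCm38.p6, the assembly of mm10; 9 of the 10 members matched the promoter table. DESeq2 1.42.0 and other scalings, filters, windows and single libraries left out were tried, and the summit window was added after seeing the data. The scripts, in R 4.3.3 and Python 3.11.15, were tested on simulated data. Members, lists and motifs were chosen with earlier results of these data known. Named genes were all members, *Rnf8* and *Scml2*, the 6 largest changes in each direction of the wider list, and *Prdx3*, *Prdx4*, *Txn1*, *Txn2*, *Srxn1*, *Gsr*, *Smcp* and *Sephs2*. *Prdx6b*, *Selk*, *Sod1*, *Nme8*, *Nfe2l2*, *Hmox1*, marker genes, neighbours and genes named only as called or not called were added after their values were seen. If replicates share animals or preparations, p-values measure only the spread between these samples.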

Additional observations from a re-analysis of the deposited data

How the results depend on the processing

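Counts of calls over all genes, rows and promoters, over the members and over the wider list stayed within 1.5 times of the main count under every alternative, except that without centring 943 promoters were called higher and 3876 lower. Leaving out 1 library gave 7147 to 8769 called genes, 5614 to 8153 called rows and 4037 to 4664 called promoters. Direction changed in few places, none of them called: *Prdx1* RNA (-0.33 to 0.22 over single libraries left out, -0.33 to 0.23 on its row, and 0.018 with at least 50 counts), and, in H3K27ac, *Gpx4* (-0.11), *Txnrd1* (-0.38) and *Txnrd2* (-0.38) without centring, *Txnrd1* (-0.18 to 0.21) and *Txnrd2* (-0.0058 to 0.040) over single libraries left out, and *Txnrd2* with quantile normalization (-0.061) and with pileup (-0.0021). The cause was not tested. The *Prdx2* row lost its call without PS replicate 1 and without either RS replicate (log2 -1.02 to -0.73), although the gene kept it. Labels give PS and RS the same replicate numbers without saying that a number marks 1 mouse. Same-numbered samples deviated with a correlation of 0.22 in RNA and 0.0069 in H3K27ac. With replicate number as a block, 8723 genes, 7958 rows and 4919 promoters were called. With this block, *Gpx4* H3K27ac passed the threshold (0.29, adjusted p = 0.047), and no other member's call changed. A stricter peak threshold left *Prdx2* and *Txndc8* promoters untested. The depth limits *Txnrd2*, and the H3K27ac depth is unknown.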
